A study of Mus musculus with 8 samples.

Results

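The genes described here encode the ATR checkpoint kinase, its partner ATRIP, its activator TOPBP1, the 9-1-1 clamp with the paralogs RAD9B and HUS1B, the clamp loader subunit RAD17 and the effector kinase CHK1. They were chosen by symbol (Atr, Atrip, Topbp1, Rad9a, Rad9b, Hus1, Hus1b, Rad1, Rad17 and Chek1), and all 10 were found among the 28460 genes of the deposited table. RNA was sequenced from cells of mouse testes at postnatal day 12, when germ cells of the first wave are in meiotic prophase. The groups were 4 Brg1 cKO samples, with a conditional knockout of Brg1, and 4 Brg1 WT samples, all on a mixed strain background. Brg1 is the ATPase, encoded by Smarca4, that drives a SWI/SNF chromatin remodelling complex. The sources used here name neither the Cre driver nor the deleted part of the gene.

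ATR is a large kinase of the PI3K-like family that is brought to single-stranded DNA by ATRIP. A ring of RAD9, HUS1 and RAD1, loaded onto DNA by RAD17 with small RFC subunits, carries TOPBP1 to ATR and switches it on, and ATR then phosphorylates CHK1. In the testis ATR gathers on chromosome axes that have not synapsed and on the X and Y chromosomes of the sex body, where it takes part in meiotic silencing. RAD9B and HUS1B are paralogs of RAD9A and HUS1, and in mice Rad9b is known for its testis expression.

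Library totals ran from 20456743 to 27872409 estimated counts in Brg1 cKO and from 25213109 to 32596038 in Brg1 WT. Smarca4 checked the labels: it had 111 to 129 CPM (estimated counts relative to library totals that were scaled with TMM) in Brg1 cKO and 338 to 357 CPM in Brg1 WT. The cells were not sorted by a marker named in the labels, and markers of other testis cells were present. The germ cell genes Ddx4 and Dazl averaged 178 and 531 CPM in Brg1 cKO and 214 and 645 CPM in Brg1 WT. The Sertoli cell gene Clu averaged 4125 CPM in Brg1 cKO and 2808 CPM in Brg1 WT. The genotypes overlapped for each of these genes. Sums of the spermatogonia, spermatocyte and spermatid markers below did not overlap between the genotypes, while those of the Sertoli markers did. Called here means an adjusted p under 0.05 by edgeR's quasi-likelihood test with Benjamini-Hochberg adjustment over the 16059 genes tested. Ddx4 and Dazl were not called, and Clu was called higher. The 12 Sertoli markers summed to 5385 to 7520 CPM in Brg1 cKO and 4387 to 5551 CPM in Brg1 WT, with Clu making up most of each sum. Of the 12, 5 were called higher and 7 were not called, beside 8.79% of all tested genes called higher. The 12 undifferentiated spermatogonia markers summed to 276 to 368 CPM in Brg1 cKO and 398 to 536 CPM in Brg1 WT. Of these, 8 were called lower and 2 higher, beside 11.8% and 8.79% of all tested genes. The 8 differentiating spermatogonia markers summed to 489 to 609 CPM in Brg1 cKO and 656 to 754 CPM in Brg1 WT, with 4 called lower and 1 higher. The 12 leptotene and zygotene markers summed to 1016 to 1253 CPM in Brg1 cKO and 1419 to 1994 CPM in Brg1 WT. Of the 12, 8 were called lower, beside 11.8% of all tested genes. The 14 pachytene and spermatid markers summed to 89.7 to 106 CPM in Brg1 cKO and 133 to 237 CPM in Brg1 WT, the highest sums being those of Brg1 WT replicates 1 and 2. Of these, 8 were tested and 5 called lower, and Tnp1, Tnp2, Prm1, Prm2, Pgk2 and Adam3 stayed under 1 CPM in every library. Ccna1, among the 5, passed the filter on low counts through its Brg1 WT libraries, with 17 to 54 counts against 3 to 8 in Brg1 cKO. In bulk samples, fewer cells of a type and less RNA per cell cannot be told apart.

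Promoter windows of RefSeq (GRCm38.p6, 250 bases before to 50 bases after a gene's start) were held for 9 of the 10 genes. The windows of the kinase, its partner, its activator and the paralogs Rad9b and Hus1b are shown, as those of the kinase with the proteins that recruit and activate it and of the clamp paralogs. The windows of Hus1, Rad1, Rad17 and Chek1 were searched in the same way. Capitals mark matches, on either strand, to an E2F word (TTTCCCGC or TTTGGCGC or TTTCGCGC or TTTGCCGC, searched as 1 group), the GC box GGGCGG, the CCAAT box or the word CNCCTCAG, described in mice for STRA8, a regulator of meiotic entry.
Atr, chr9:95857347-95857646, plus strand: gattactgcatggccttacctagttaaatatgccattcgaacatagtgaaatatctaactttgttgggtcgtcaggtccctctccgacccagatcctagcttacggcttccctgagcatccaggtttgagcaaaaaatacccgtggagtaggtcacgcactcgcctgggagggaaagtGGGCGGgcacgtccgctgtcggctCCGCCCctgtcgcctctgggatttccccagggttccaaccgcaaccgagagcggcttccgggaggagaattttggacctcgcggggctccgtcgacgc
Atrip, chr9:109074075-109074374, minus strand: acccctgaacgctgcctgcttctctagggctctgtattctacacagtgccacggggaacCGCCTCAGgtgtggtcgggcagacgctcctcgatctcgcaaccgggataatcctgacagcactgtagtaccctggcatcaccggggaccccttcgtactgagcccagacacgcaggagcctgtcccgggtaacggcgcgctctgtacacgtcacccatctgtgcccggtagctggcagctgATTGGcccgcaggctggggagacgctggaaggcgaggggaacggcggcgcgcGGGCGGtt
Topbp1, chr9:103305077-103305376, plus strand: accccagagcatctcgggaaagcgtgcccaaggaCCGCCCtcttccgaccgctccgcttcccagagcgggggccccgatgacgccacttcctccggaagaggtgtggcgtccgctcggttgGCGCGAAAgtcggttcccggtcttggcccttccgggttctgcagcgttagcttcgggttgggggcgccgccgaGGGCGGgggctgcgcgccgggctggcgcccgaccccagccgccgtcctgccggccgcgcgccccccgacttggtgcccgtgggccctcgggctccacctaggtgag
Rad9b, chr5:122354156-122354455, minus strand: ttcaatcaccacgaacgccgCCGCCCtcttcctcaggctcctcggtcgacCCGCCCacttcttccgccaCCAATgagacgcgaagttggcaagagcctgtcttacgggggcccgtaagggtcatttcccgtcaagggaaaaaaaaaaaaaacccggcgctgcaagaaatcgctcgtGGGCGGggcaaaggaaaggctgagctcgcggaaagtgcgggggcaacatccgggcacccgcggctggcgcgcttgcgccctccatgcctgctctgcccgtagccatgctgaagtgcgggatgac
Hus1b, chr13:30947712-30948011, minus strand: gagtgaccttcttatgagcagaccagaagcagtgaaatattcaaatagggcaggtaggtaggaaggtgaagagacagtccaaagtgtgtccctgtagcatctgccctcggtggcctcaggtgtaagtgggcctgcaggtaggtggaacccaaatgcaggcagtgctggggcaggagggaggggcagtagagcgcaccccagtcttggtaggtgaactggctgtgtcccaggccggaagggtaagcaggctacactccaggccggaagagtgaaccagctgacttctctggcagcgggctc

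The window of Hus1b had the fewest CpG pairs of the 9. It held 5 CpG pairs and no match to any of these words, against 21 to 38 CpG pairs in the first window of each of the other 8 genes, and 43.6% of the 32851 windows of all genes held at most 5. A GC box lay in 5 of the 9 windows (Atr, Atrip, Topbp1, Rad9b and Hus1) and in 35.7% of all windows. An E2F word was found in Topbp1, a word that 2.26% of all windows held. The STRA8 word was found in Atrip and in 7.94% of all windows. A CCAAT box lay in Atrip and Rad9b and in 37.4% of all windows. These matches describe the letters and say nothing of binding.

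Per length, the kinase, its activator and the loader subunit were the most abundant of the 10, and the 9-1-1 paralogs Hus1b and Rad9a the least. Levels per kilobase used the longest coding transcript of GENCODE M21, since the sources used here do not name the annotation behind the counts. On that scale Topbp1 averaged 27.6 ± 2.62 CPM per kb in Brg1 cKO and 34.4 ± 5.17 in Brg1 WT (SD, n = 4 each), and Atr 27.4 ± 1.41 in Brg1 cKO and 43.2 ± 12.7 in Brg1 WT. Rad17 followed with 19.1 ± 1.02 CPM per kb in Brg1 cKO and 23.0 ± 1.54 in Brg1 WT. Chek1, Rad9b and Atrip formed a middle group, at 7.30 to 8.17 CPM per kb on average in Brg1 cKO and 7.80 to 9.75 in Brg1 WT. Neighbours in this order whose means ± SD overlapped in both genotypes were Topbp1 and Atr, Chek1 and Rad9b, and Rad9a and Hus1b. Hus1 averaged 4.98 ± 0.331 CPM per kb in Brg1 cKO and 5.39 ± 0.537 in Brg1 WT, and Rad1 4.06 ± 0.572 in Brg1 cKO and 4.29 ± 0.507 in Brg1 WT. Rad9a averaged 2.04 ± 0.332 CPM per kb in Brg1 cKO and 2.30 ± 0.204 in Brg1 WT, and Hus1b 1.45 ± 0.405 in Brg1 cKO and 1.76 ± 0.458 in Brg1 WT.

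All 10 genes passed the filter on low counts. Of the 10, 3 were called lower in Brg1 cKO (Atr, Rad9b and Rad17), where 11.8% of all tested genes were called lower, and 0 were called higher, where 8.79% of all tested genes were. The same 3 genes had all 4 Brg1 cKO libraries below all 4 Brg1 WT libraries, a pattern seen in 15.0% of tested genes. All 10 fold changes were negative, with a median log2 fold change of -0.22, beside 0.013 over all tested genes.

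**Figure D1:**
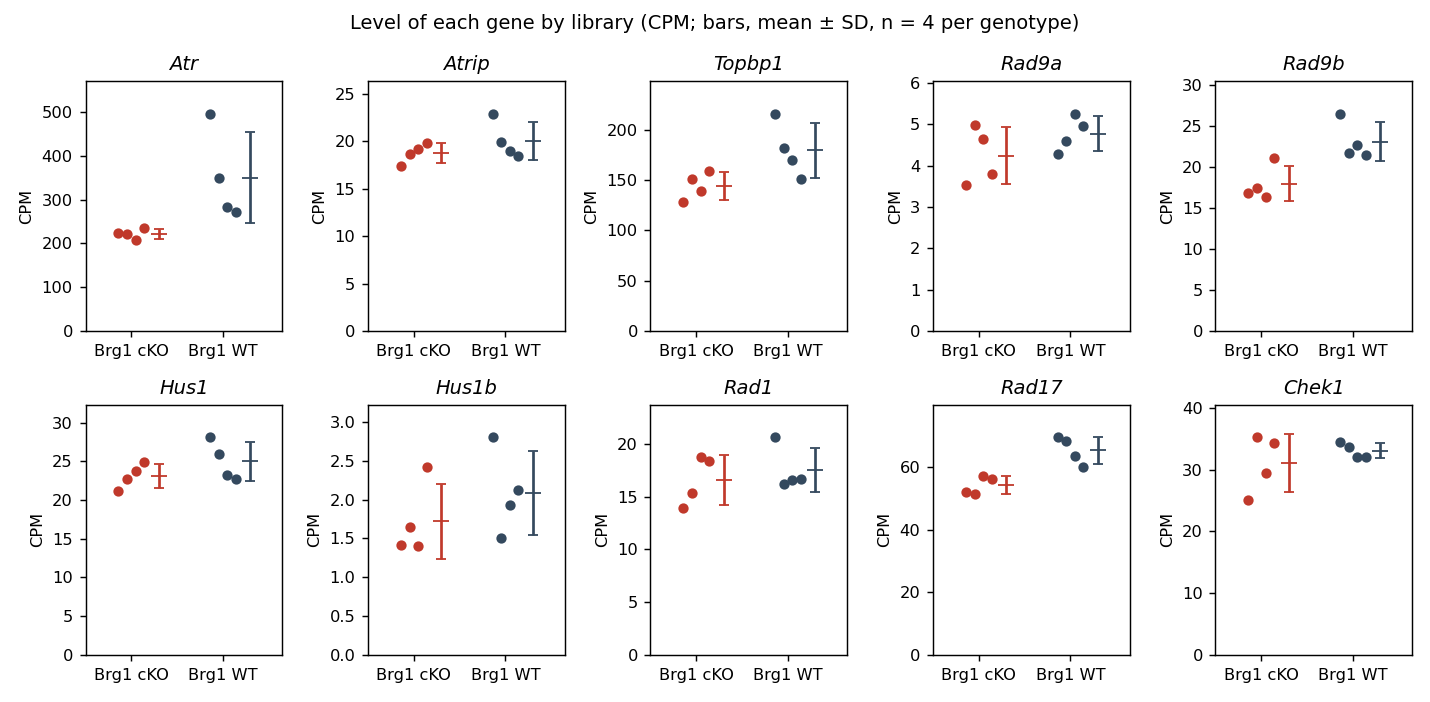
Level of each of the 10 genes in CPM (vertical axes, from 0) in the 4 Brg1 cKO libraries (red, left) and the 4 Brg1 WT libraries (dark, right), points in replicate order, with the mean ± SD beside them. The genotypes do not overlap for Atr, Rad9b and Rad17, and Brg1 WT replicate 1 holds the highest Atr level, 496 CPM.

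Atr, the kinase, had the largest difference of the 10. It had 224, 221, 208 and 236 CPM in Brg1 cKO replicates 1 to 4, against 496, 349, 284 and 271 CPM in Brg1 WT replicates 1 to 4. The Brg1 cKO libraries lay close together, with a coefficient of variation of 5.15%, while the Brg1 WT libraries spread over 29.4%. The means were 222 ± 11.4 CPM in Brg1 cKO and 350.2 ± 103 CPM in Brg1 WT (SD, n = 4 each). The log2 fold change was -0.66 ± 0.18 (SE; 95% interval -1.05 to -0.26; edgeR adjusted p = 0.031). Without Brg1 WT replicate 1 the change was -0.44 and was still called (edgeR adjusted p = 0.023). The call was lost when Brg1 WT replicate 2 was left out (edgeR adjusted p = 0.072), and likewise for Brg1 cKO replicates 1, 2 and 3 in turn (0.078, 0.063 and 0.080). In GENCODE M21 a pair of antisense genes overlaps Atr, and the sources used here do not say whether quantification used strand.

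Atrip, which brings ATR to RPA-coated DNA, was not called. It had 17.4, 18.7, 19.2 and 19.8 CPM in Brg1 cKO replicates 1 to 4, against 22.9, 19.9, 19.0 and 18.4 CPM in Brg1 WT replicates 1 to 4. The genotypes overlapped, and the 95% interval of the log2 fold change ran from -0.31 to 0.12 around -0.10 (edgeR adjusted p = 0.496). Trex1, an exonuclease gene, overlaps Atrip on the same strand, so that reads could be split between them; it averaged 3.06 CPM in Brg1 cKO and 2.43 CPM in Brg1 WT.

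Topbp1, whose protein activates ATR at the clamp, had 128, 151, 139 and 159 CPM in Brg1 cKO replicates 1 to 4. In Brg1 WT replicates 1 to 4 it had 216, 182, 170.2 and 151 CPM. In 3 of the 4 Brg1 cKO libraries it lay below every Brg1 WT library, replicate 2 by less than the rounding shows, and replicate 4 lay within the Brg1 WT range. The log2 fold change was -0.32 ± 0.11 (SE; 95% interval -0.57 to -0.07), and it was not called (edgeR adjusted p = 0.066). It was called by DESeq2 (adjusted p = 0.040) and, in edgeR, without Brg1 WT replicate 4 (adjusted p = 0.035).

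Of the clamp subunits and their paralogs, Rad9b fell and Rad9a, Hus1, Hus1b and Rad1 were not called. Rad9b, the RAD9 paralog, had 16.8, 17.5, 16.4 and 21.1 CPM in Brg1 cKO replicates 1 to 4, against 26.5, 21.7, 22.7 and 21.5 CPM in Brg1 WT replicates 1 to 4. The genotypes did not overlap, though Brg1 cKO replicate 4 came close to the lowest Brg1 WT library. The log2 fold change was -0.36 ± 0.11 (SE; 95% interval -0.61 to -0.12; edgeR adjusted p = 0.045). The call rested on the full set: without any single library other than Brg1 cKO replicate 4 it was lost, at edgeR adjusted p-values of 0.057 to 0.117, and without that replicate it was 0.023. Rad9b overlaps Pptc7 on the opposite strand, which averaged 74.3 CPM in Brg1 cKO and 68.5 CPM in Brg1 WT.

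Rad9a, the widely expressed RAD9 gene, had 3.53, 4.99, 4.65 and 3.81 CPM in Brg1 cKO replicates 1 to 4, against 4.29, 4.60, 5.26 and 4.97 CPM in Brg1 WT replicates 1 to 4. The genotypes overlapped, with a log2 fold change of -0.17 (95% interval -0.52 to 0.19). Within the pair, Rad9b made up most of the RAD9 transcripts per length: 78.7% ± 3.74 in Brg1 cKO and 80.8% ± 2.51 in Brg1 WT (SD, n = 4 each). The ratio of Rad9b to Rad9a counts, which does not depend on library scaling, overlapped between the genotypes (exact two-sided permutation p = 0.400, adjusted p = 0.514 over the 4 ratios tested). Rad9a overlaps Ppp1ca on the opposite strand, which averaged 100.4 CPM in Brg1 cKO and 99.5 CPM in Brg1 WT, and reads of near-identical stretches of paralogs can be shared between them.

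Hus1 had 21.2, 22.7, 23.7 and 24.9 CPM in Brg1 cKO replicates 1 to 4, against 28.1, 25.9, 23.3 and 22.7 CPM in Brg1 WT replicates 1 to 4. The ranges overlapped, with a log2 fold change of -0.11 (95% interval -0.32 to 0.10). Hus1b, its paralog, had the lowest level of the 10, with 31, 45, 35 and 49 estimated counts in Brg1 cKO replicates 1 to 4 and 83, 39, 63 and 52 in Brg1 WT replicates 1 to 4. The 95% interval ran from -0.87 to 0.30 around a log2 fold change of -0.28, an interval that holds both 0 and the value found for Atr. Hus1b lies inside Exoc2 on the same strand, and Exoc2 averaged 64.6 CPM in Brg1 cKO and 60.3 CPM in Brg1 WT. Per length, Hus1b made up 22.3% ± 3.77 of the HUS1 pair in Brg1 cKO and 24.4% ± 4.26 in Brg1 WT (SD, n = 4 each). The ratio of Hus1b to Hus1 counts overlapped between the genotypes (exact two-sided permutation p = 0.514, adjusted p = 0.514).

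Rad1, the clamp subunit with no paralog among these genes, had 13.9, 15.3, 18.7 and 18.4 CPM in Brg1 cKO replicates 1 to 4, against 20.6, 16.2, 16.6 and 16.7 CPM in Brg1 WT replicates 1 to 4. It had the smallest difference of the 10, a log2 fold change of -0.08 (95% interval -0.37 to 0.21).

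Rad17, the loader subunit, fell by a small amount, with its highest levels in Brg1 WT replicates 1 and 2. It had 52.1, 51.4, 57.2 and 56.1 CPM in Brg1 cKO replicates 1 to 4, against 69.4, 68.3, 63.4 and 60.0 CPM in Brg1 WT replicates 1 to 4. The genotypes did not overlap, with a log2 fold change of -0.27 ± 0.068 (SE; 95% interval -0.42 to -0.11; edgeR adjusted p = 0.025). The call was lost when Brg1 WT replicate 1, 2 or 3 was left out (edgeR adjusted p = 0.059, 0.076 and 0.053), and likewise for Brg1 cKO replicate 1 (0.074). Of the small RFC subunits that form the loader with RAD17, named after their values were seen, Rfc2, Rfc3, Rfc4 and Rfc5 were not called, with log2 fold changes of -0.23, 0.04, -0.42 and -0.26. The ratio of Rad17 to Rad1 counts was 3.05 to 3.74 in Brg1 cKO and 3.36 to 4.22 in Brg1 WT, with overlap (exact two-sided permutation p = 0.114, adjusted p = 0.229).

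Chek1, the kinase that ATR activates to hold back the cell cycle, had 25.1, 35.2, 29.4 and 34.3 CPM in Brg1 cKO replicates 1 to 4. In Brg1 WT replicates 1 to 4 it had 34.5, 33.6, 32.1 and 32.0 CPM. The Brg1 cKO libraries spread to either side of the Brg1 WT range, 2 below it and 1 above it. The log2 fold change was -0.09 (95% interval -0.33 to 0.15; edgeR adjusted p = 0.559).

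**Figure D2:**
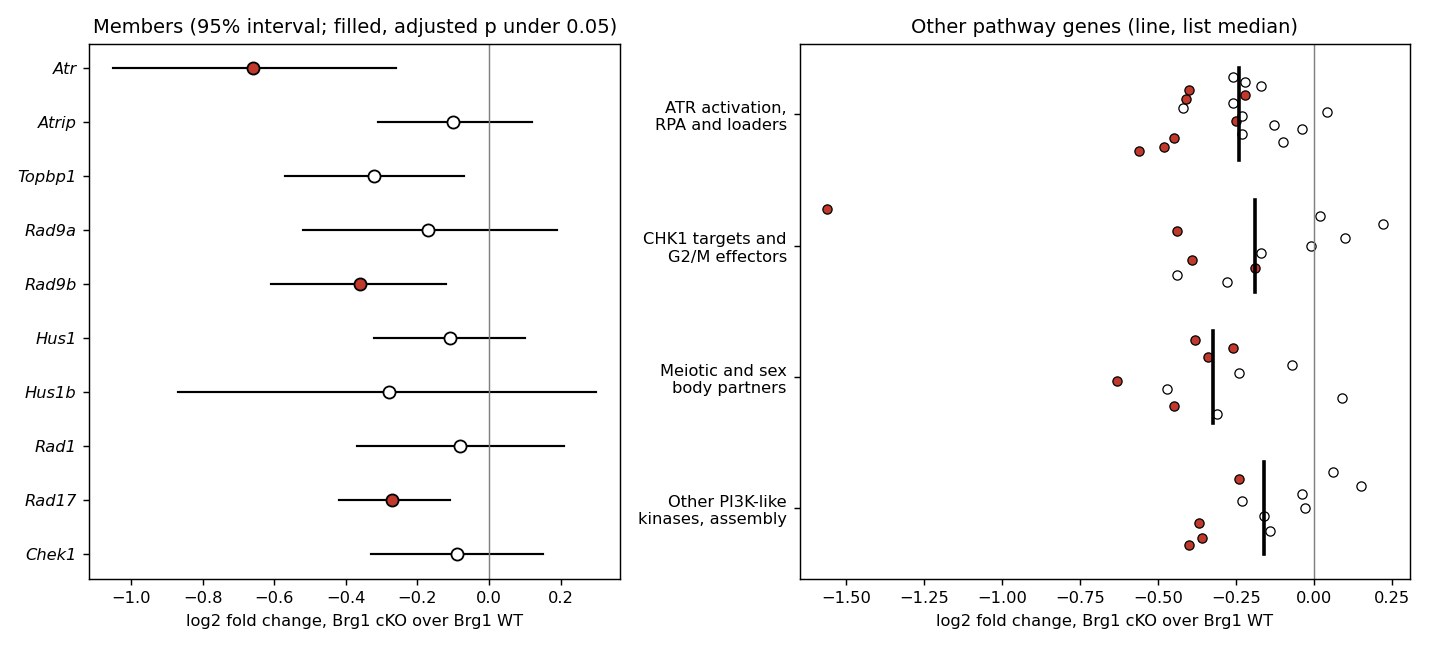
Left, log2 fold change of Brg1 cKO over Brg1 WT for each of the 10 genes (points) with its 95% interval (lines), filled where the adjusted p was under 0.05. Right, the same for the genes of 4 lists of the wider pathway (points) with the list medians (vertical lines at -0.24, -0.19, -0.33 and -0.16).

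Atr counts were also set against Atrip counts, kinase against partner. Within a library, there were 12.8, 11.8, 10.9 and 11.9 Atr counts per Atrip count in Brg1 cKO replicates 1 to 4. In Brg1 WT replicates 1 to 4 there were 21.6, 17.6, 15.0 and 14.7. The genotypes did not overlap, and the mean log2 ratio was 3.56 ± 0.10 in Brg1 cKO and 4.09 ± 0.26 in Brg1 WT (SD, n = 4 each), a difference of -0.52. The exact two-sided permutation p was 0.029, the smallest that 4 against 4 libraries can give, and 0.114 after adjustment over the 4 ratios, which misses the threshold. The adjusted p of a ratio that alone reaches the smallest p stays above 0.05 whatever the other ratios give. The adjusted test could thus not have called an isolated difference. Without Brg1 WT replicates 1 and 2 the difference was -0.33.

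**Figure D3:**
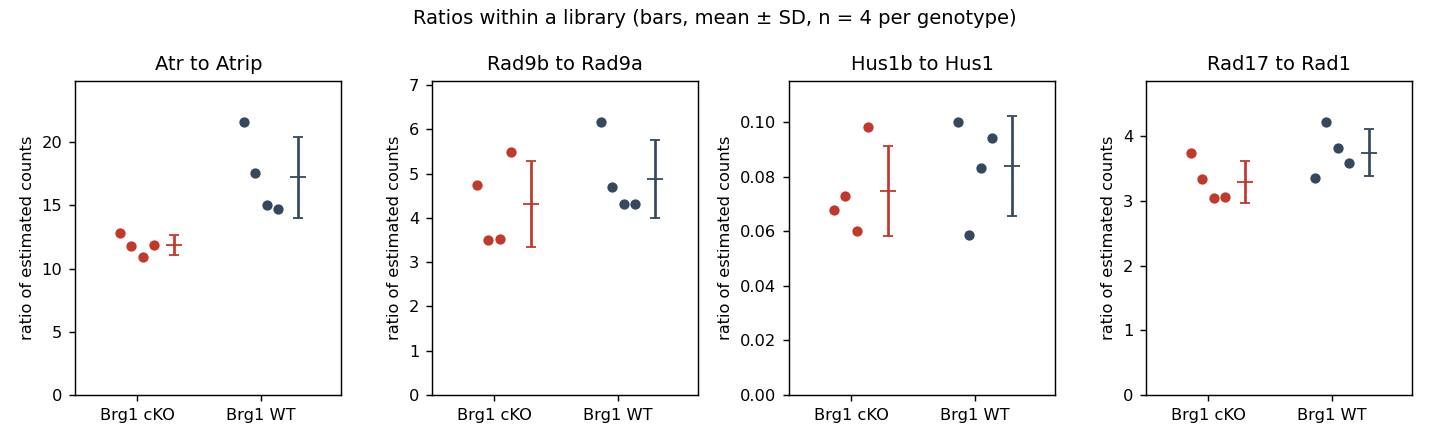
Ratio of estimated counts within each library (vertical axes, from 0) for 4 pairs of genes in Brg1 cKO (red, left) and Brg1 WT (dark, right), with the mean ± SD. The Atr to Atrip ratio is at most 12.8 in Brg1 cKO and at least 14.7 in Brg1 WT, while the other ratios overlap.

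Atr and the stage markers were both highest in Brg1 WT replicates 1 and 2. The other libraries ranked alike for Atr and the leptotene and zygotene sum, apart from Brg1 WT replicates 3 and 4, which changed places. For the pachytene and spermatid sum, the Brg1 cKO libraries did not keep the order of Atr. Brg1 WT replicates 1 to 4 had 1994, 1563, 1419 and 1422 CPM of leptotene and zygotene markers and 237, 207, 152 and 133 CPM of pachytene and spermatid markers, beside 496, 349, 284 and 271 CPM of Atr. Brg1 cKO replicates 1 to 4 had 1110, 1094, 1016 and 1253 CPM of leptotene and zygotene markers and 105, 89.7, 106 and 99.9 CPM of pachytene and spermatid markers, beside 224, 221, 208 and 236 CPM of Atr. Brg1 cKO replicate 3 had the least Atr and the least leptotene and zygotene marker RNA of its genotype. It also had the most pachytene and spermatid marker RNA of its genotype, just above replicate 1. Brg1 WT replicates 3 and 4 had nearly the same leptotene and zygotene sum. Set against those markers, a measure chosen after seeing the data, there were 202, 202, 205 and 188 Atr counts per 1000 marker counts in Brg1 cKO replicates 1 to 4. In Brg1 WT replicates 1 to 4 there were 249, 223, 200.4 and 191, so that the genotypes overlapped on this scale. Rad9b and Topbp1 overlapped as well, with 16.0 ± 0.694 and 129 ± 10.7 counts per 1000 marker counts in Brg1 cKO and 14.6 ± 1.21 and 113 ± 6.44 in Brg1 WT. Atrip, Hus1, Rad1, Rad17 and Chek1 were higher per marker count in Brg1 cKO with no overlap between the genotypes. For Chek1 the separation was less than the rounding shows, with 22.6 in both Brg1 cKO replicate 1 and Brg1 WT replicate 3. For Rad17 it was narrow, 44.8 in Brg1 cKO replicate 4 against 44.6 in Brg1 WT replicate 3. Atrip had 16.9 ± 1.47 in Brg1 cKO and 12.6 ± 0.803 in Brg1 WT. The share of all genes without overlap on this scale was not counted. When the median of these markers was taken as no change, edgeR called 11071 genes higher and 352 lower. A rise on this scale is thus not particular to these genes. The share of spermatocytes in each library was not measured, and its part in these differences was not tested.

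**Figure D4:**
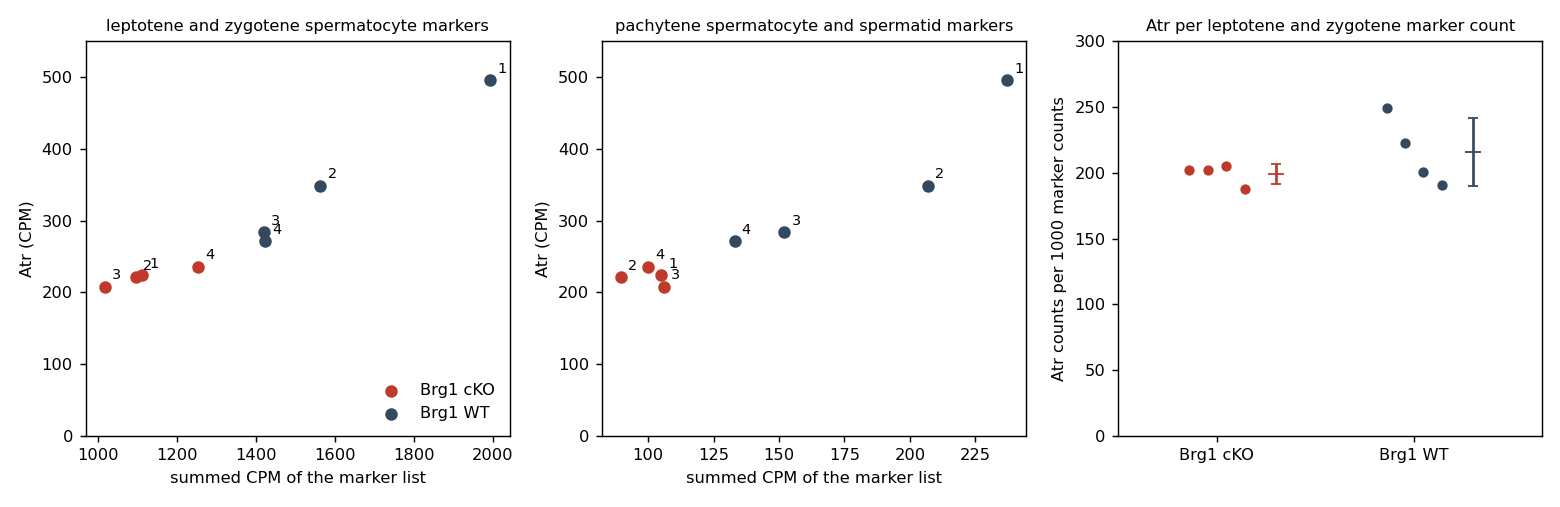
Left and middle, Atr in CPM (vertical axis) against the summed CPM of 12 leptotene and zygotene markers and of 14 pachytene and spermatid markers in Brg1 cKO (red) and Brg1 WT (dark), each point a library with its replicate number. Right, Atr counts per 1000 leptotene and zygotene marker counts with the mean ± SD, where Brg1 cKO libraries at 188 to 205 overlap Brg1 WT libraries at 191 to 249.

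Without Brg1 WT replicates 1 and 2, which held the most pachytene and spermatid marker RNA, 0 of the 10 genes were called lower by edgeR, where 2.08% of tested genes were. At an unadjusted p under 0.05, 3 were lower (Atr, Rad9b and Rad17), against 13.0% of tested genes. In that fit the log2 fold change was -0.32 ± 0.074 for Atr, -0.30 ± 0.12 for Rad9b and -0.18 ± 0.076 for Rad17 (SE; edgeR adjusted p = 0.066, 0.201 and 0.200).

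Other genes of the pathway, in 4 lists, were lower or not called. Of 50 tested, 20 were called lower and 0 higher, at a median log2 fold change of -0.24, beside 11.8% of all tested genes lower and a median of 0.013. Markers of cycling cells summed to 1267 to 1578 CPM in Brg1 cKO and 1725 to 2033 CPM in Brg1 WT, and their part in these counts was not tested. In the list of ATR activation, RPA, clamp loaders and fork protection, 7 of 18 fell and 11 were not called. Atad5, whose protein unloads PCNA, averaged 56.9 ± 6.59 CPM in Brg1 cKO and 83.6 ± 7.81 CPM in Brg1 WT (SD, n = 4 each; log2 fold change -0.56, edgeR adjusted p = 0.0062). Clspn, whose protein claspin presents CHK1 to ATR, averaged 71.1 ± 8.11 CPM in Brg1 cKO and 97.1 ± 2.80 CPM in Brg1 WT. Rhno1, whose protein binds the 9-1-1 clamp and TOPBP1, averaged 25.7 ± 2.10 CPM in Brg1 cKO and 34.1 ± 0.723 CPM in Brg1 WT. Rfc1, the large subunit of the replication clamp loader, averaged 130.3 ± 6.63 CPM in Brg1 cKO and 155 ± 6.38 CPM in Brg1 WT. For each of these 4, all Brg1 cKO libraries lay below all Brg1 WT libraries, as in 15.0% of tested genes. They were named for their small adjusted p, a choice that favours this pattern, so it adds no support.

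Among 11 genes of CHK1 targets and the G2/M step 4 fell and 7 were not called, beside 11.8% of tested genes called lower. Of the CDC25 phosphatases, which CHK1 restrains, Cdc25a and Cdc25b fell and Cdc25c was not called (log2 fold change -0.17, edgeR adjusted p = 0.387, genotypes overlapping). Cdc25b averaged 14.7 ± 0.962 CPM in Brg1 cKO and 19.1 ± 0.462 CPM in Brg1 WT, and Cdc25a 77.3 ± 1.11 CPM in Brg1 cKO and 88.1 ± 3.50 CPM in Brg1 WT. Chek2, the kinase downstream of ATM, averaged 10.3 ± 1.81 CPM in Brg1 cKO and 13.9 ± 0.843 CPM in Brg1 WT (SD, n = 4 each). Wee2, an inhibitory kinase known from oocytes, was called from few counts, 4, 4, 2 and 8 in Brg1 cKO replicates 1 to 4 and 16, 11, 23 and 16 in Brg1 WT replicates 1 to 4. It passed the filter on low counts through its Brg1 WT libraries, so its call adds no support to the 4 of this list or the 20 of 50.

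Of 10 genes that act with ATR on unsynapsed axes or in the sex body, 5 fell and 5 were not called. Over all tested genes 11.8% were called lower. Brca1, whose protein brings ATR to unsynapsed axes, averaged 63.5 ± 8.55 CPM in Brg1 cKO and 86.5 ± 4.97 CPM in Brg1 WT (SD, n = 4 each; log2 fold change -0.45, edgeR adjusted p = 0.014). Trip13, which removes HORMAD proteins from synapsed axes, averaged 34.1 ± 4.34 CPM in Brg1 cKO and 44.2 ± 1.32 CPM in Brg1 WT. Setdb1, a histone methyltransferase of sex chromosome silencing, averaged 176 ± 13.9 CPM in Brg1 cKO and 211 ± 12.9 CPM in Brg1 WT. Scml2, a germ-line Polycomb protein, averaged 257 ± 24.8 CPM in Brg1 cKO and 326 ± 37.1 CPM in Brg1 WT.

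Of 11 genes for the other PI3K-like kinases and their assembly factors, 4 fell and 7 were not called. The share called lower among all tested genes was 11.8%. Atm, the kinase of double-strand breaks, averaged 121 ± 15.7 CPM in Brg1 cKO and 159 ± 5.87 CPM in Brg1 WT (SD, n = 4 each; log2 fold change -0.40, edgeR adjusted p = 0.015). Mtor, the growth kinase, averaged 179 ± 11.1 CPM in Brg1 cKO and 229 ± 27.4 CPM in Brg1 WT, and Prkdc, the end-joining kinase, 87.4 ± 11.7 CPM in Brg1 cKO and 113 ± 5.83 CPM in Brg1 WT. Tti1, a subunit of the TTT complex that stabilises these kinases, averaged 52.0 ± 1.60 CPM in Brg1 cKO and 61.5 ± 5.41 CPM in Brg1 WT.

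Over the 8 libraries, the genes whose log2 CPM was most like that of Atr were Wdr35, Wfdc15a, Ccdc155, Ythdc2 and Adad1, with Pearson r of 0.991 to 0.986 among 12478 genes ranked. Ythdc2 is known for its role in meiotic entry, and Ccdc155, now Kash5, links telomeres to the cytoskeleton in meiosis. With each genotype's mean removed, Stk17b, Sympk, Gtpbp3, Wdr35 and Ythdc2 were nearest, at 0.988 to 0.979, so that Wdr35 and Ythdc2 stood in both groups. Among the other 9 genes of the set, Topbp1 was most like Atr over the 8 libraries (0.926) and Rad9a least (0.083). These values describe 8 libraries, of which Brg1 WT replicate 1 is the farthest out for Atr.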

How the data were processed

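The authors deposited estimated counts per gene symbol, not scaled for depth or length. The submitters' processing notes name kallisto 0.42.5, the build mm9 and edgeR, and no annotation is named there. Per the labels' protocols, testes were digested and filtered, and a stranded mRNA kit was used for sequencing libraries. Because 49.4% of values were not whole (tolerance 1e-06), estimated counts were rounded. Every 2 libraries differed by more than sampling noise (lowest chi-square per degree of freedom 21.45).

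Genes were filtered with filterByExpr, scaled with TMM and tested across all genes in edgeR 4.0.16 by its quasi-likelihood test (R 4.3.3, robust fit, genotype the only term). Standard errors are the absolute log2 fold change over the square root of F. The design text calls the samples biological replicates. Ratios used a pseudocount of 0.5 and exact permutation tests. Steps were tested on simulated data. The genes, lists and tests were chosen with earlier results of these data known. Named genes were the 10 members, up to 4 called genes of each pathway list with the smallest adjusted p, and the 5 genes most like Atr (average log2 CPM of at least 1, leaving out Gm and Rik symbols). Alternatives were DESeq2 1.42.0, limma-voom (limma 3.58.1), other scalings and filters, left-out libraries and the replicate number as a block. Promoter sequences are from RefSeq (GRCm38.p6).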

Additional observations from a re-analysis of the deposited data

Results flagged for a closer look

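Rad1 in Brg1 WT replicate 1, at 20.6 CPM, stood apart from the other Brg1 WT libraries, which had 16.2 to 16.7 CPM. Its gap to the nearest of them took up 0.885 of the range of the 4 libraries, above Dixon's 95% critical value for 4 samples. The same check was run on 28 groups of 4 values, and chance gives such a gap in about 1 in 20 groups. Without Brg1 WT replicate 1 the log2 fold change of Rad1 was 0.01, against -0.08 with all 8 libraries.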

How the results depend on the processing

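The count of genes called lower was 2 to 4 of the 10 with DESeq2, limma-voom, RLE or upper-quartile factors, no filter, and a filter of at least 1 CPM in 4 libraries. Over all tested genes, the count called lower ran from 1685 (no filter, 2 of the 10) to 2227 (DESeq2, 4 of the 10). It was 1900 in the main fit. Leaving out 1 library gave 0 to 3 called lower, and 1608 to 3477 genes called in all against 3312. Without Brg1 WT replicates 1 and 2, 0 were called lower of 438 genes called, and Atrip and Hus1 turned to 0.01 each. Leaving out 1 library moved Rad1 over -0.14 to 0.01. Same-numbered samples did not deviate together (correlations -0.21, 0.13, -0.37 and 0.15), beside -0.27 to 0.31 for differently numbered ones. These correlations show no pairing by number but cannot exclude it. With the replicate number as a block 0 were called lower and 1914 genes in all, with Atr at -0.61 (edgeR adjusted p = 0.0502). In the paired test of the Atr to Atrip ratio the difference was -0.52 (exact two-sided p = 0.125, the smallest that 4 pairs can give).

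Directions depended on the level taken as no change, which moved the median of all genes from 0.01 to 0.32 (pan-germ cell markers), 0.70 (undifferentiated spermatogonia), -0.38 (Sertoli cell) and 0.55 (leptotene and zygotene, chosen after seeing the data). Relative to pan-germ cell markers 0 of the 10 were called lower, with 8254 genes called (650 lower, 7604 higher). Atrip and Chek1 were then at 0.22, Hus1 0.20, Hus1b 0.03, Rad1 0.23, Rad17 0.04 and Rad9a 0.14, while Atr stayed at -0.34. Relative to undifferentiated spermatogonia 0 were called lower and 8 higher, with 12657 genes called (245 lower, 12412 higher). Atr was then at 0.03, Atrip 0.59, Topbp1 0.37, Rad9a 0.52, Rad9b 0.32, Hus1 0.58, Hus1b 0.41, Rad1 0.61, Rad17 0.42 and Chek1 0.60. Relative to Sertoli cell markers 9 were called lower, with 8807 genes called (8743 lower, 64 higher) and Atr at -1.05. Relative to leptotene and zygotene markers 0 were called lower and 5 higher, with 11423 genes called (352 lower, 11071 higher). Atrip was then at 0.44, Topbp1 0.22, Rad9a 0.37, Rad9b 0.17, Hus1 0.43, Hus1b 0.26, Rad1 0.46, Rad17 0.27 and Chek1 0.45, with Atr at -0.12. Each scaling shifts all genes by about the same amount, so the order of the 10 is that of the first fit. With a pseudocount of 1 or 0.1 no ratio passed the adjusted threshold, and with libraries left out or paired none could have passed.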

Other observations

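Atr, Atrip, Topbp1 and Chek1 lie on chromosome 9, as Smarca4 does. Of the 855 tested genes placed on chromosome 9 by GENCODE M21, 178 (20.8%) were called in either direction, against 20.7% of the 15185 tested genes with a position.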
